A study of Mus musculus with 27 samples.

Results

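The 10 genes Arntl, Npas2, Nr1d1, Nr1d2, Per1, Per2, Per3, Cry1, Dbp and Tef, all parts of the circadian clock or its direct outputs, were followed by gene name through epididymal white adipose tissue, the fat pad beside the testis. They are 10 of the 43460 gene names in the count table, and all 10 were among the 17821 names tested after low counts were removed. RNA of the whole fat pad of C57BL/6N mice was sequenced in 27 libraries, 3 for each of 9 groups. The series profiles transcripts while mice gain weight on a rich diet, lose it and put it on again. The hour at which tissue was taken is not in the labels, so an effect of diet on a clock gene and an effect of the hour cannot be told apart.

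The regain mice, 21 weeks old, had been put back on a high-fat diet (60% of energy from fat) for the last 4 of 16 weeks, after earlier weight loss. The gain4 mice, also 21 weeks old, had the high-fat diet for 4 weeks of a 16-week period. The maintenance mice, 21 weeks old, had 8 weeks of normal diet after high-fat feeding. The loss mice, 17 weeks old, had 4 weeks of normal diet after high-fat feeding, within a period of 12 weeks. The gain8 mice, 13 weeks old, had 8 weeks of high-fat diet. The control16 mice (21 weeks old), control12 mice (17 weeks old) and control8 mice (13 weeks old) ate only normal diet, for 16, 12 and 8 weeks. The initial mice were 5 weeks old at week 0. No genotype or agent other than diet is named. The labels do not say whether the 3 libraries of a group came from separate mice, and p-values therefore describe the scatter among these libraries, which may be technical.

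The clock of mammalian cells is a feedback loop of transcription. Arntl (BMAL1) pairs with Clock or Npas2 and activates E-box genes, among them the Per and Cry genes, whose proteins inhibit that pair, and Nr1d1 and Nr1d2 (REV-ERB alpha and beta), which repress Arntl and Npas2. Dbp and Tef are PAR bZIP factors that act on D-boxes. In mouse fat, as in liver, the activator genes peak at a part of the day roughly opposite to that of genes such as Nr1d1 and Dbp. Not every gene grouped here as repressor or output, Cry1 for one, has that timing.

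Libraries held 26479773 to 32728594 counts. Levels are CPM, each count relative to the TMM-scaled size of its library, and they are given for libraries 1, 2 and 3 of a group in that order. Lars2, a gene with ribosomal-RNA-like sequence at its locus, split the libraries into 15 with 1325 to 4104 CPM and 12 with 97.5 to 212 CPM, across all groups but the initial one, whose 3 libraries were all high. Maintenance library 3 stood apart, with 5233 CPM of the liver transcript Alb against 0.908 to 80.9 CPM in the other 26. The fat pad was recognisable by its adipocyte transcripts, with Adipoq between 764 and 5812 CPM, and no library was without Cd68 (29.5 to 1065 CPM), a macrophage marker. In whole tissue, fewer cells of a type and less RNA per cell cannot be told apart.

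Stretches of promoter are shown for the genes in which the 250 bases before a RefSeq transcript start held a complete E-box or D-box, the elements through which the loop and its outputs act. Both strands were searched for the E-box CACGTG, the D-box TTATGTAA and the half-site AGGTCA that REV-ERB proteins bind, and none of the matches overlapped. The sequences come from RefSeq on GRCm38.p6, run 5′ to 3′ on the strand of the gene, and have the matches in capitals. The 4 windows are Per3 (chr4:151044666-151044915, minus strand), Cry1 (chr10:85185055-85185304, minus strand), Per1 (chr11:69098699-69098948, plus strand) and the downstream of 2 Tef starts (chr15:81811164-81811413, plus strand). Neither Arntl window before a start held a match. For Arntl only the 30 bases around an AGGTCA that begins at base 32 of the transcript from its downstream start are shown (chr7:113207530-113207559, plus strand). That site lies after the start, outside the windows searched, and the shares of windows given below do not cover it.
Per3: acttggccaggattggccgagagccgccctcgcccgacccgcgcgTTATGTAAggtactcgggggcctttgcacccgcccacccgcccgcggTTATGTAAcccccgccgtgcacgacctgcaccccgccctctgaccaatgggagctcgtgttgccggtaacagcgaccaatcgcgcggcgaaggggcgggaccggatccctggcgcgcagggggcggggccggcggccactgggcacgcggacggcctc
Cry1: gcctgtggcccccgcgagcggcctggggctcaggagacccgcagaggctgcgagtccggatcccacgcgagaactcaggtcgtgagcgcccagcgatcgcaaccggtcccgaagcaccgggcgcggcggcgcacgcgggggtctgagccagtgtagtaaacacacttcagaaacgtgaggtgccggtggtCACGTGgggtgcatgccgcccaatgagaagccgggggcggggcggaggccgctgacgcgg
Per1: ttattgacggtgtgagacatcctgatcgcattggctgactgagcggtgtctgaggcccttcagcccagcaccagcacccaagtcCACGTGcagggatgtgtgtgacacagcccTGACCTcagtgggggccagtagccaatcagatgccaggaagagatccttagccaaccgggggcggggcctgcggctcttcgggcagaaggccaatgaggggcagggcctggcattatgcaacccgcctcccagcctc
Tef: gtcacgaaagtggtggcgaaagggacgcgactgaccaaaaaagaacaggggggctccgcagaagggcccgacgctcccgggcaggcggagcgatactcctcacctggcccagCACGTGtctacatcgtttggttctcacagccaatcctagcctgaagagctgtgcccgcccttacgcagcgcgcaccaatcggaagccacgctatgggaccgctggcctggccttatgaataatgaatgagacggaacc
Arntl: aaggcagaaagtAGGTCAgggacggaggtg

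Per3 had 2 D-boxes, which begin 205 and 158 bases before the start. The E-boxes began 60 bases before the start in Cry1, 166 in Per1 and 138 in Tef (the upstream Tef window, not shown, has one at 127 bases), and the Per1 window also held a half-site at 137 bases. Over all 32851 windows of the same length, a D-box was found in 0.819%, an E-box in 6.02% and a half-site in 14.0%, which makes 0.977%, 6.86% and 15.8% of the 27025 genes with a window. Of the 9 members with a window, 3 held an E-box, 1 a D-box and 2 a half-site, the second being Nr1d2 at 77 bases. These matches describe letters and are not sites shown to be bound.

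Of the 10 members, 7 varied over the 9 groups by edgeR's quasi-likelihood test, namely Arntl, Npas2, Nr1d1, Nr1d2, Per1, Per3 and Cry1, a share to be read beside the 50.0% of all genes that did. Per2, Dbp and Tef did not pass, with adjusted p-values of 0.0898, 0.0697 and 0.0897. Per length of transcript, in the authors' FPKM averaged over the 27 libraries, the order of level was Nr1d1 (33.9), Per1 (16.6), Tef (13.6), Nr1d2 (10.7), Arntl (6.96), Dbp (5.91), Per3 (3.90), Per2 (3.86), Cry1 (3.66) and Npas2 (1.79). The ranges of all neighbours in that order overlapped over the libraries. Exons of Nr1d1 share 263 bases with Thra on the opposite strand, 8.55% of its exonic length, and those of Dbp share 539 bases, 18.0%, with Sphk2. No source states whether counting used strand, so reads in those bases cannot be assigned to either gene. Thra had 81.0, 54.4 and 56.7 CPM in gain8 fat, against 146, 149 and 148 CPM in control8 fat. Sphk2 had 34.4, 42.4 and 35.4 CPM in gain8 fat, against 22.5, 24.7 and 22.1 CPM in control8 fat. The part of these genes in the counts of Nr1d1 and Dbp was not tested.

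**Figure D1:**
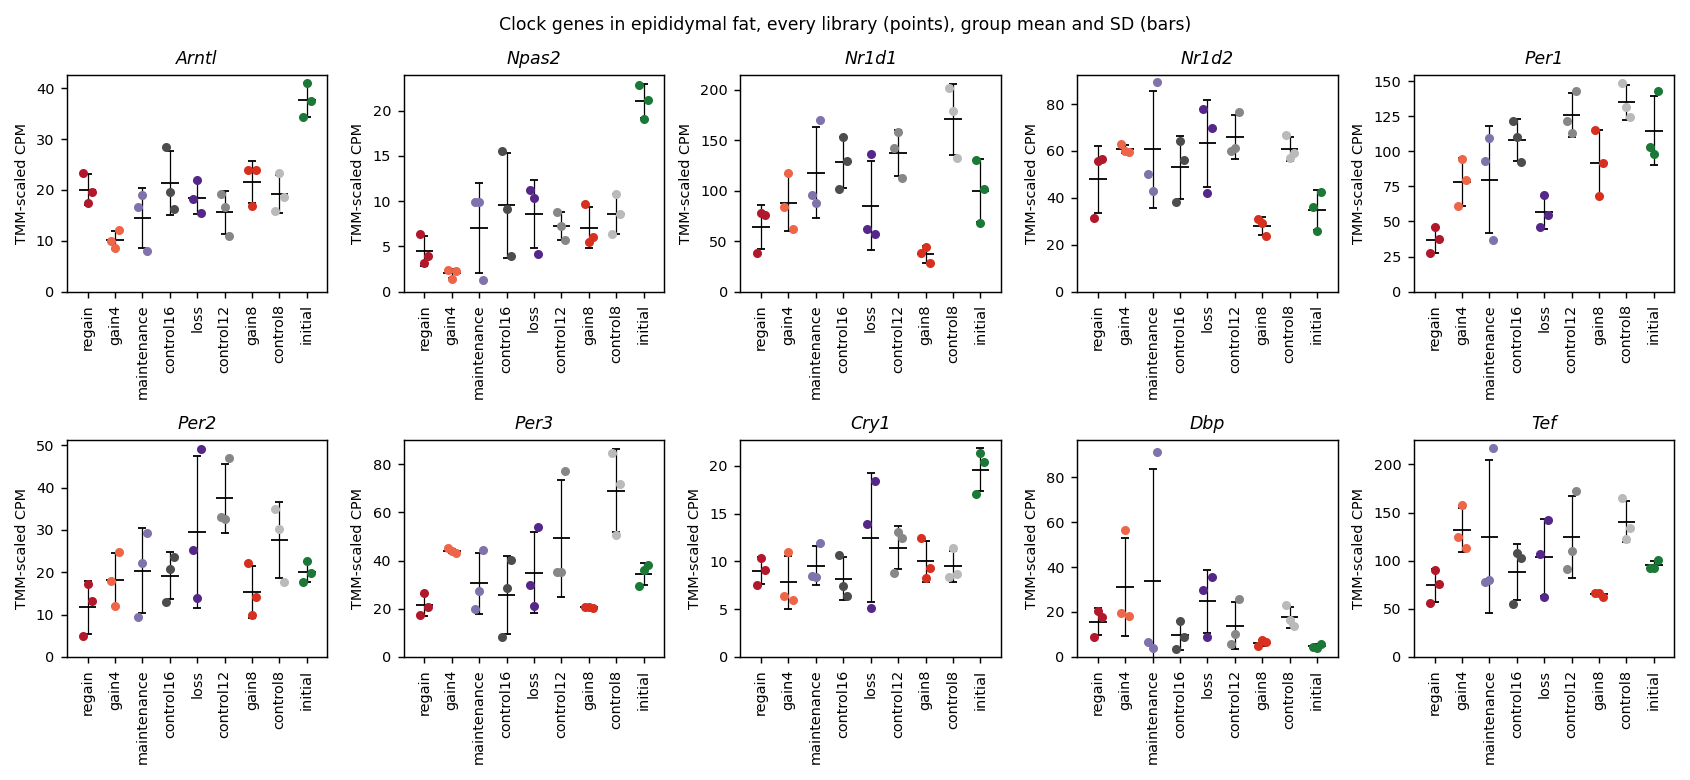
Level of each clock gene in TMM-scaled CPM (vertical axis, linear from 0) in every library (points) of the 9 groups, with the group mean and SD (n = 3). By group mean, Arntl, Npas2 and Cry1 are highest in the initial group and Nr1d1 is lowest in gain8, and 1 maintenance library reaches 91.3 CPM of Dbp.

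After 8 weeks of high-fat diet, 4 of the 8 repressor and output genes fell and neither of the 2 activators passed the test. Nr1d1 (ENSMUSG00000020889, GRCm38 chr11:98767932-98775333, minus strand) had 38.5, 44.0 and 27.9 CPM in gain8 fat, against 201, 179 and 132 CPM in control8 fat, and the groups did not overlap. Nr1d2, its paralog (ENSMUSG00000021775, chr14:18204054-18239127, minus strand), had 31.2, 29.3 and 23.9 CPM in gain8 fat, against 66.8, 56.9 and 59.0 CPM in control8 fat. Per3, the period gene that is dispensable for the central clock of mice (ENSMUSG00000028957, chr4:151003652-151044665, minus strand), had 20.5, 20.9 and 20.3 CPM in gain8 fat, against 84.6, 50.5 and 71.8 CPM in control8 fat. All 3 genes were lower in every gain8 library than in any control8 library, and the gain8 libraries of Per3 lay within 1 CPM of each other. The output factor Tef (ENSMUSG00000022389, chr15:81802421-81826863, plus strand) had 66.8, 66.7 and 62.4 CPM in gain8 fat, against 165, 123 and 134 CPM in control8 fat.

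These 4 members fell, with log2 fold changes of -2.21 ± 0.37 (SE) for Nr1d1, -1.11 ± 0.28 for Nr1d2, -1.74 ± 0.43 for Per3 and -1.11 ± 0.35 for Tef. Their adjusted p-values (edgeR quasi-likelihood, Benjamini-Hochberg over all genes) were 0.000378, 0.00704, 0.00665 and 0.0291. Of all genes tested, 9.52% fell in this comparison and 21.5% changed in either direction. Tef lost its call without any of the 3 gain8 libraries or without control8 library 1 or 3 (adjusted p 0.0551 to 0.0961). Within the high and the low Lars2 set the differences were -2.21 and -2.22 for Nr1d1, -0.87 and -1.24 for Nr1d2, -1.29 and -1.92 for Per3, and -0.88 and -1.20 for Tef, in log2 units. The high set held only 1 library of each group here, and the low set 2 of each.

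Of the other members, Per1 and Dbp were also lower in every gain8 library than in any control8 library, which makes 6 of 10 members, against 23.1% of all genes, but neither passed the test. Dbp (ENSMUSG00000059824, chr7:45705088-45710203, plus strand) had 4.69, 7.52 and 6.47 CPM in gain8 fat, against 22.9, 16.4 and 13.6 CPM in control8 fat, with a log2 fold change of -1.50 ± 0.85 and an adjusted p of 0.211 by edgeR. A model of these 2 groups alone, which sets aside the wide spread of Dbp elsewhere, put the adjusted p of Dbp at 0.00544. Per1 had a log2 fold change of -0.56 ± 0.29 and Per2 of -0.85 ± 0.47. Arntl had 23.8, 16.8 and 24.0 CPM in gain8 fat, against 15.9, 23.3 and 18.7 CPM in control8 fat (0.16 ± 0.27), and Npas2 and Cry1 had log2 fold changes of -0.28 ± 0.53 and 0.08 ± 0.33. Both activators overlapped between the groups. Macrophage markers summed to 4935 to 5684 CPM in gain8 fat, against 1214 to 1638 CPM in control8 fat, and their part in the result was not tested.

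**Figure D2:**
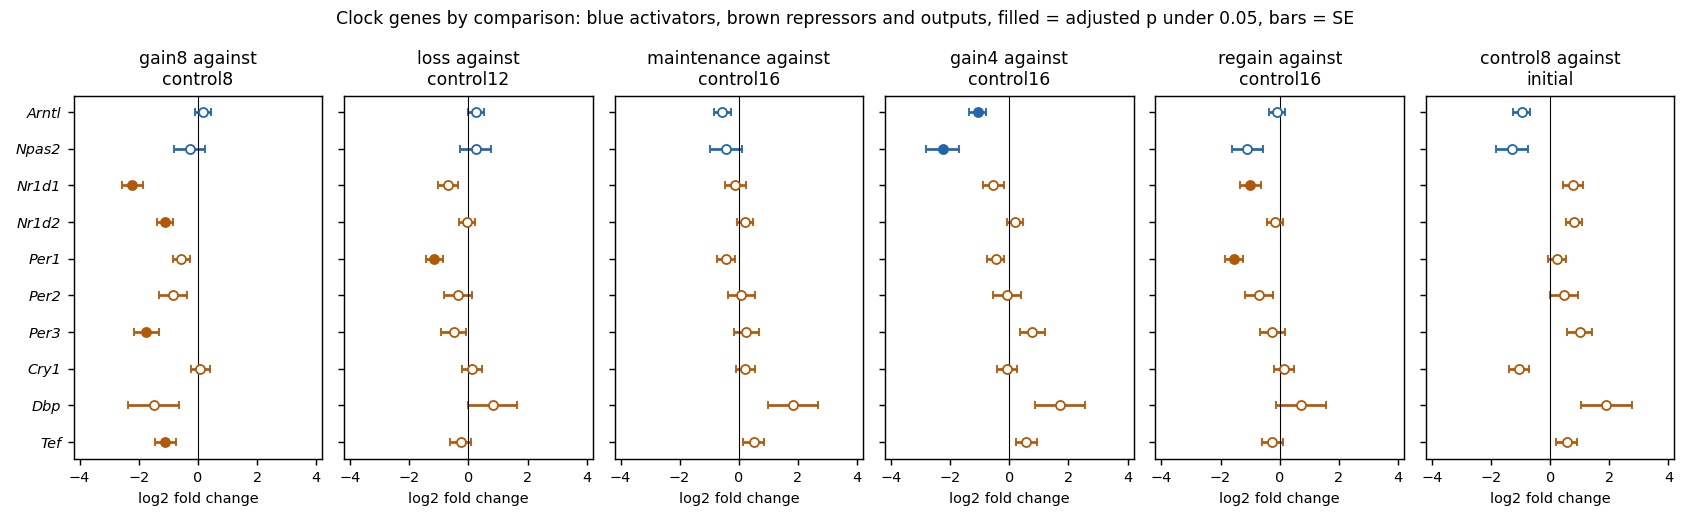
Log2 fold change (horizontal axis) of each member in 6 comparisons, with SE bars; blue marks the activators Arntl and Npas2, brown the repressor and output genes, and filled points have an adjusted p under 0.05. In gain8, 7 of the 8 brown points lie to the left of 0, all but Cry1, and the blue ones lie near 0, and in gain4 the blue points lie to the left.

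In the gain4 mice, both activators fell against control16, and 3 of the repressor and output genes were higher in every library without passing the test. Arntl (ENSMUSG00000055116, chr7:113207465-113314126, plus strand) had 9.92, 8.51 and 12.1 CPM in gain4 fat, against 28.4, 19.5 and 16.2 CPM in control16 fat. Npas2, a partner of Arntl that can stand in for Clock (ENSMUSG00000026077, chr1:39193731-39363236, plus strand), had 2.38, 1.38 and 2.24 CPM in gain4 fat, against 15.5, 9.18 and 3.95 CPM in control16 fat. Neither gene overlapped between the groups, as for 11.3% of all genes lower in every gain4 library, although control16 itself ranged widely. The log2 fold changes were -1.07 ± 0.28 for Arntl and -2.25 ± 0.56 for Npas2, with edgeR adjusted p-values of 0.0311 and 0.0270, where 2.02% of all genes fell and 5.82% changed in either direction.

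Dbp had 19.5, 56.5 and 18.0 CPM in gain4 fat, against 3.52, 16.1 and 8.95 CPM in control16 fat. Its log2 fold change was 1.71 ± 0.85 (edgeR adjusted p 0.216). Per3 had 45.0, 43.8 and 43.3 CPM in gain4 fat, against 8.28, 28.5 and 40.2 CPM in control16 fat (0.78 ± 0.42), and Tef had 125, 158 and 114 CPM in gain4 fat, against 54.6, 107 and 103 CPM in control16 fat (0.58 ± 0.35). Genes higher in every gain4 library made 14.1% of all genes, and 3 of the 10 members were among them. Nr1d1, the member that fell most in gain8, had 83.5, 118 and 62.0 CPM in gain4 fat, against 102, 153 and 129 CPM in control16 fat (-0.54 ± 0.35), so it was not on the higher side with Dbp.

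Both activator calls rest on few libraries. Leaving out control16 library 1, the highest for both genes, gave log2 fold changes of -0.78 for Arntl (edgeR adjusted p 0.171) and -1.69 for Npas2 (0.138), and leaving out control16 library 2 or gain4 library 2 ended both calls as well, as did a model of the compared groups alone. Arntl also lost its call without gain4 library 1 (0.0682). In the high and the low Lars2 set the differences were -1.46 and -0.56 for Arntl, and -3.05 and -0.76 for Npas2, in log2 units. The high set held 1 gain4 and 2 control16 libraries, and the low set 2 gain4 libraries and 1 control16 library. Macrophage markers summed to 2520 to 4752 CPM in gain4 fat, against 1639 to 2010 CPM in control16 fat, and their part in the result was not tested.

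The gain4 and gain8 effects were compared as a difference of differences, gain4 against control16 minus gain8 against control8. Both the length of the diet (4 and 8 weeks) and the age (21 and 13 weeks) differ between them and cannot be told apart. No member passed, and none of the 17821 genes did (0% called). The largest values were 3.22 ± 1.20 for Dbp and 2.52 ± 0.60 for Per3 (log2, SE), with 1.69 ± 0.50 for Tef, 1.67 ± 0.50 for Nr1d1 and 1.31 ± 0.39 for Nr1d2 on the same side and -1.23 ± 0.39 for Arntl and -1.97 ± 0.76 for Npas2 on the other. These 7 had unadjusted p-values under 0.05, as did 1519 genes in all, with edgeR, while DESeq2 called 1 member, Per3 (adjusted p 0.0188).

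In mice put back on the high-fat diet after weight loss, Per1 and Nr1d1 were lower than in controls. Per1, a period gene that glucocorticoids also induce (ENSMUSG00000020893, chr11:69095217-69109960, plus strand), had 27.4, 46.1 and 37.6 CPM in regain fat, against 122, 110 and 92.0 CPM in control16 fat. Nr1d1 had 38.3, 77.4 and 76.1 CPM in regain fat, against 102, 153 and 129 CPM in control16 fat. The groups did not overlap for either gene, as for 19.6% of all genes lower in every regain library. Per1 fell by a log2 fold change of -1.54 ± 0.30 (edgeR adjusted p 0.00092) and Nr1d1 by -1.0 ± 0.35 (0.0475), where 9.23% of all genes fell and 21.7% changed in either direction. The 2 calls among 10 members lie above the share that fell and near the share that changed in either direction. The 2 members without overlap are near the 19.6% of all genes. The Nr1d1 call ended in 8 of 17 alternative fits, with adjusted p up to 0.185 without regain library 1, and also without regain library 2 or 3 or control16 library 2 or 3. Within the high and the low Lars2 set the differences were -1.47 and -1.75 for Per1 and -0.70 and -1.75 for Nr1d1, in log2 units. The high set held 2 libraries of each group here, and the low set only 1 of each.

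Arntl had 23.3, 17.3 and 19.5 CPM in regain fat and so lay beside control16 (log2 fold change -0.09 ± 0.27) and above gain4, whose mice had the same last 4 weeks of diet but no earlier weight loss named. Against gain4, Arntl was higher with a log2 fold change of 0.98 ± 0.28 (edgeR adjusted p 0.0432) and Per1 was lower with -1.08 ± 0.30 (0.0398), where 4.12% of all genes rose and 1.36% fell. Neither pair of groups overlapped. Npas2 was likewise higher in every regain library than in any gain4 library, and Nr1d2, Per3 and Tef lower, which makes 2 and 4 members against 14.6% and 10.4% of all genes, and none of these 4 passed the test. Both calls were lost with no filter, with only the 2 groups in the model and with the replicate block (adjusted p 0.0522 for both genes), and without gain4 library 1 or 2 or regain library 1 or 3; Arntl was also lost without regain library 2.

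With 4 weeks back on normal diet, Per1 was the only member that passed the test against age-matched controls. It had 45.7, 69.1 and 54.8 CPM in loss fat, against 122, 113 and 143 CPM in control12 fat, with no overlap, as for 17.1% of all genes on that side. Its log2 fold change was -1.15 ± 0.30 (edgeR adjusted p 0.00932), where 8.24% of all genes fell and 20.0% changed in either direction. A count of 1 call among 10 members is near the share of all genes that fell. Without loss library 1 the log2 fold change of Per1 was -1.03 and the edgeR adjusted p 0.0753. The 2 Lars2 sets gave -1.34 (high, 2 libraries of each group) and -0.81 (low, only 1 of each) in log2 units. Macrophage markers summed to 4981 to 14127 CPM in loss fat, against 1147 to 1509 CPM in control12 fat, and to 5279 to 10282 CPM in regain fat, against 1639 to 2010 CPM in control16 fat. The 10 adipocyte markers listed, all detected in every library, summed to 8927 to 32656 CPM in loss fat, against 28958 to 50842 CPM in control12 fat, and to 16215 to 25454 CPM in regain fat, against 33398 to 45178 CPM in control16 fat. Of these 10 markers, 4 fell and 0 rose in either comparison, with medians of -0.93 in loss and -1.04 in regain on the log2 scale. The part of either cell type in the level of Per1 was not tested.

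Against gain8, the loss group had higher values for Nr1d1, Nr1d2, Per3 and Dbp in every library, 4 of 10 members where 7.87% of all genes did so. Nr1d2 had 77.9, 42.2 and 69.6 CPM in loss fat, against 31.2, 29.3 and 23.9 CPM in gain8 fat. The log2 fold changes were 1.17 ± 0.28 for Nr1d2 (edgeR adjusted p 0.106), 1.21 ± 0.36 for Nr1d1 (0.195) and 1.99 ± 0.86 for Dbp (0.341). No member passed, where 0.0786% of all genes did. An unadjusted edgeR p under 0.05 was found for 4 members and for 2257 of the 17821 genes, and DESeq2 called Nr1d2 (adjusted p 0.00916). The effect in loss minus the effect in gain8, each against its own controls, was 1.52 ± 0.50 for Nr1d1, 1.05 ± 0.39 for Nr1d2 and 1.25 ± 0.59 for Per3 in log2 units. These 3 members had an unadjusted edgeR p under 0.05, as did 1231 genes in all, and Dbp had 2.32 ± 1.19. No gene of the 17821 passed for this difference of differences.

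After 8 weeks of normal diet no member passed the test in the maintenance group against control16, and neither did any other gene (0% called by edgeR, with 3633 genes and 1 member at an unadjusted p under 0.05). That member was Dbp, with 6.41, 4.07 and 91.3 CPM in maintenance fat, against 3.52, 16.1 and 8.95 CPM in control16 fat. The log2 fold change of 1.83 ± 0.85 rests on library 3 and became -0.82 without it. The same library had the highest Tef (217 CPM) and Nr1d2 (89.3 CPM) and the lowest Arntl (7.91 CPM) and Npas2 (1.32 CPM) of all 27. It is the library with the high Alb, whose part in these levels was not tested. Set against maintenance, regain fat had lower Per1 (log2 fold change -1.11 ± 0.30, edgeR adjusted p 0.00895, where 13.0% of all genes fell), but the groups overlapped. The difference was -1.88 in the low Lars2 set, with 1 regain and 2 maintenance libraries. It was 0.18 in the high one, where library 3 is the only maintenance library. No member passed between regain and loss or between maintenance and loss, where 0% and 24.5% of all genes were called.

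Along the normal-diet series, Arntl, Npas2 and Cry1 were higher in every 5-week-old library than in any adult normal-diet one, while the other 7 members overlapped with at least 1 adult normal-diet group, and no member passed the test from one age to the next. In the initial, control8, control12 and control16 groups Arntl averaged 37.6 ± 3.3, 19.3 ± 3.7, 15.6 ± 4.2 and 21.4 ± 6.3 CPM (SD, n = 3 each). Cry1, a cryptochrome repressor (ENSMUSG00000020038, chr10:85131700-85185064, minus strand), averaged 19.6 ± 2.3, 9.46 ± 1.65, 11.4 ± 2.3 and 8.18 ± 2.25 CPM in the same order. Control8 lay below initial fat in every library for Arntl, Npas2 and Cry1 and above it for Nr1d1, Nr1d2, Per3, Dbp and Tef, so that 8 of 10 members did not overlap, against 38.5% of all genes. The log2 fold changes of control8 against initial ran from -1.29 ± 0.53 (Npas2) to 1.90 ± 0.86 (Dbp).

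None of the members passed in that comparison by edgeR, where 0.724% of all genes did. Of the members, 7 had an unadjusted edgeR p under 0.05, as did 2766 of the 17821 genes. The smallest adjusted p of a member was 0.103, for Arntl. With only these 2 groups in the model 7 members passed. The share of all genes that passed in that model is not reported here, so those 7 cannot be set beside it. All initial libraries were in the high Lars2 set and control8 had 1 library there, so age and that set are only partly separable. Between the adult groups no member and no gene passed from one age to the next (0% called, with 631 genes for control12 against control8 and 665 for control16 against control12 at an unadjusted p under 0.05). Per2, a period gene whose protein represses the activators (ENSMUSG00000055866, chr1:91415982-91459324, minus strand), had 13.0, 20.7 and 23.7 CPM in control16 fat, against 33.0, 32.5 and 46.9 CPM in control12 fat, with no overlap, as for 4.67% of all genes. Over the 3 adult normal-diet groups 0 of 10 members varied (0.00561% of genes did), and Per3 had the smallest unadjusted p, 0.0111.

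Arntl was set against each of the other 9 members over the 27 libraries, each as its deviation in log2 CPM from the mean of its group, with Arntl permuted within groups 100000 times. Tef had a Pearson r of -0.90 (permutation p 1e-05, the smallest these draws can give), Dbp of -0.88 (0.00011), Per3 of -0.77 (0.0003) and Nr1d2 of -0.75 (0.00053), and Npas2 had 0.87 (6e-05). The Spearman rho was -0.87 for Tef (permutation p 3e-05), -0.82 for Dbp (0.00029), -0.80 for Per3 (0.00043), -0.70 for Nr1d2 (0.00097) and 0.83 for Npas2 (9e-05). The library highest in Arntl was the lowest of its group for Nr1d2 in 9 of 9 groups and for Per3, Dbp and Tef in 7 of 9. It was the lowest for Nr1d1 in 6, for Cry1 in 5, for Per2 in 3 and for Per1 in 2, and for Npas2 it was the highest in 4 and the lowest in 1. With 3 libraries a group, a gene unrelated to Arntl would be lowest in that library in 1 of 3 groups on average. These counts were not set beside those of all genes.

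Among all 17820 genes set against Arntl, no gene had a lower r than Tef, only Tef had a lower r than Dbp, and none had a higher r than Npas2. After Benjamini-Hochberg adjustment of the permutation p over all of them, 0 genes passed (0% called). Tef came nearest with 0.178, and 5 of the 9 members and 1675 genes had an unadjusted p under 0.05. The 2 libraries farthest in Arntl were maintenance libraries 2 and 3. Without them the r was -0.86 for Tef, -0.81 for Dbp, -0.81 for Per3, -0.65 for Nr1d2 and 0.79 for Npas2. Group means were not taken anew there, so maintenance library 1 kept a deviation from a mean that included both. That setting therefore does not remove all influence of the 2 libraries. Over 5 alternative settings, this one included, the weakest r was -0.78 for Tef, -0.76 for Dbp, -0.61 for Per3, -0.65 for Nr1d2 and 0.79 for Npas2. For the remaining members the r was -0.39 for Nr1d1, -0.38 for Per2, -0.26 for Cry1 and 0.48 for Per1, and Per1 had 0.10 without those 2 libraries, with permutation p-values of 0.0880, 0.130, 0.220 and 0.160.

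**Figure D3:**
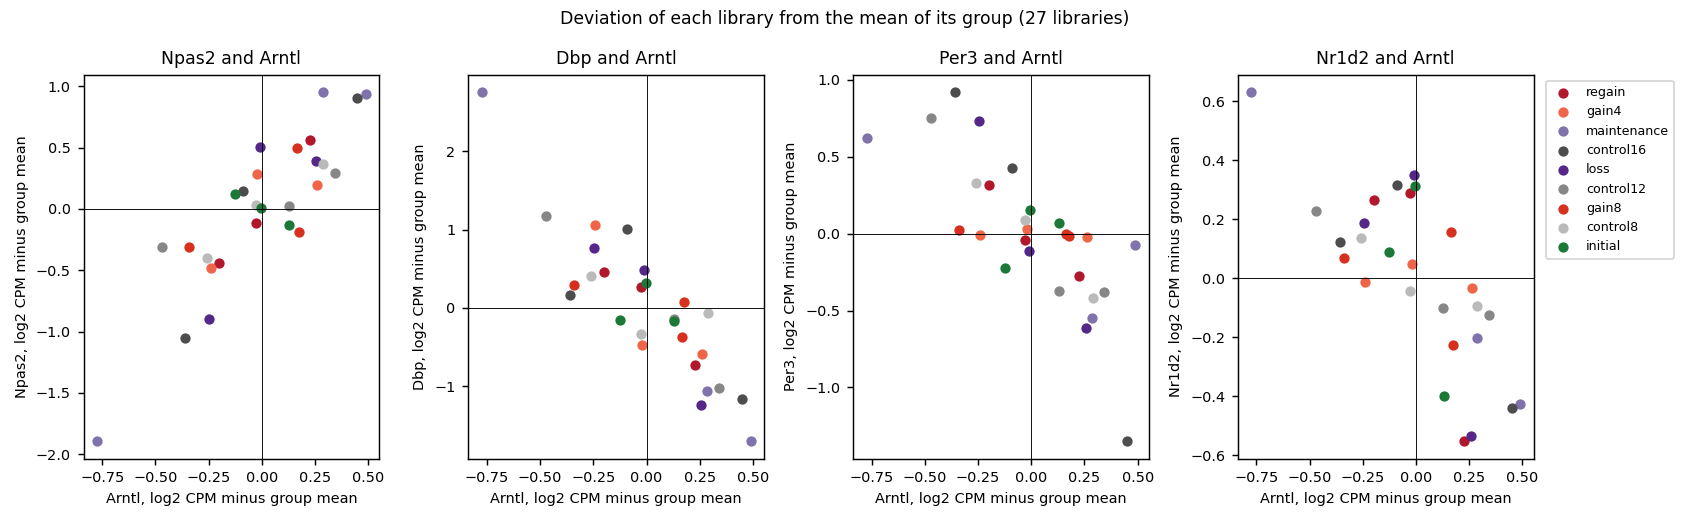
Deviation of each of 27 libraries from the mean of its group in log2 CPM, for Arntl (horizontal axis) and Npas2, Dbp, Per3 and Nr1d2 (vertical axes), coloured by group. Npas2 runs upward with Arntl and the other 3 genes run downward, with maintenance library 3 at the far left of each panel.

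The genes most like Arntl outside the members, among those with a mean of at least 5 CPM, were Abcg1 (r 0.84), a cholesterol exporter, Itga11 (0.82), a collagen-binding integrin, Tmbim1 (0.81), Thbs1 (0.79), a matrix glycoprotein, and Tmem140 (0.79). At the low end were Fam69b (-0.83), Sephs1 (-0.81), Prmt7 (-0.78) and Fga (-0.78), each over 27 libraries. Fga, fibrinogen alpha, a liver transcript, stood at -0.59 without maintenance library 3, loss library 1 and control12 library 3, while Fam69b stood at -0.84. Without those libraries r was also smaller in size for Tmbim1 (0.55), Tmem140 (0.62), Abcg1 (0.65), Thbs1 (0.73), Itga11 (0.75), Sephs1 (-0.61) and Prmt7 (-0.64). None of the genes named here passed the adjustment.

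The spread behind these relations was uneven among members. The SD within groups was 1.11 in log2 units for Dbp, higher than for 94.7% of genes, and 0.76 for Npas2, against 0.36 for Arntl, 0.36 for Nr1d2 and 0.36 for the median gene. Across all 27 libraries Dbp ranged 25.9-fold, or 16.1-fold without maintenance library 3, and Npas2 17.3-fold in CPM, while Nr1d2 ranged 3.74-fold.

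Among 16 further clock genes tested of 18 listed, 4 fell and 0 rose in gain8 against control8, with a median log2 fold change of -0.41 beside -0.02 for all genes, of which 9.52% fell. Hlf, the third PAR bZIP factor beside Dbp and Tef, fell in gain8 with 3.84, 2.21 and 2.58 CPM, against 11.8, 12.0 and 11.7 CPM in control8 fat (log2 fold change -2.04 ± 0.62, edgeR adjusted p 0.0237). No gain8 library of Hlf came near a control8 library. Csnk1e, a kinase of the period proteins, fell with -0.41 ± 0.14. In loss, 2 of the 16 rose and 3 fell, and in regain against control16 likewise 2 rose and 3 fell. The 2 of 16 that rose are near the 11.8% of all genes that rose in loss and the 12.5% in regain, where 8.24% and 9.23% of all genes fell. Cipc, an inhibitor of Clock, rose in both, by 0.73 ± 0.23 in loss and 0.80 ± 0.23 in regain. In loss, Bhlhe41, a repressor of E-box genes, also rose, by 1.65 ± 0.55, and Rora, an activator of Arntl, fell with -0.73 ± 0.24. In regain, Timeless also rose, by 1.42 ± 0.37, and Csnk1e fell with -0.46 ± 0.14. In gain4, 2 fell, among them Csnk1e with -0.56 ± 0.14, and 0 rose, where 2.02% of all genes fell and 3.80% rose. Clock itself was not called in any of these comparisons, with 58.9 to 84.7 CPM in gain8 fat, against 70.1 to 93.0 CPM in control8 fat.

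**Figure D4:**
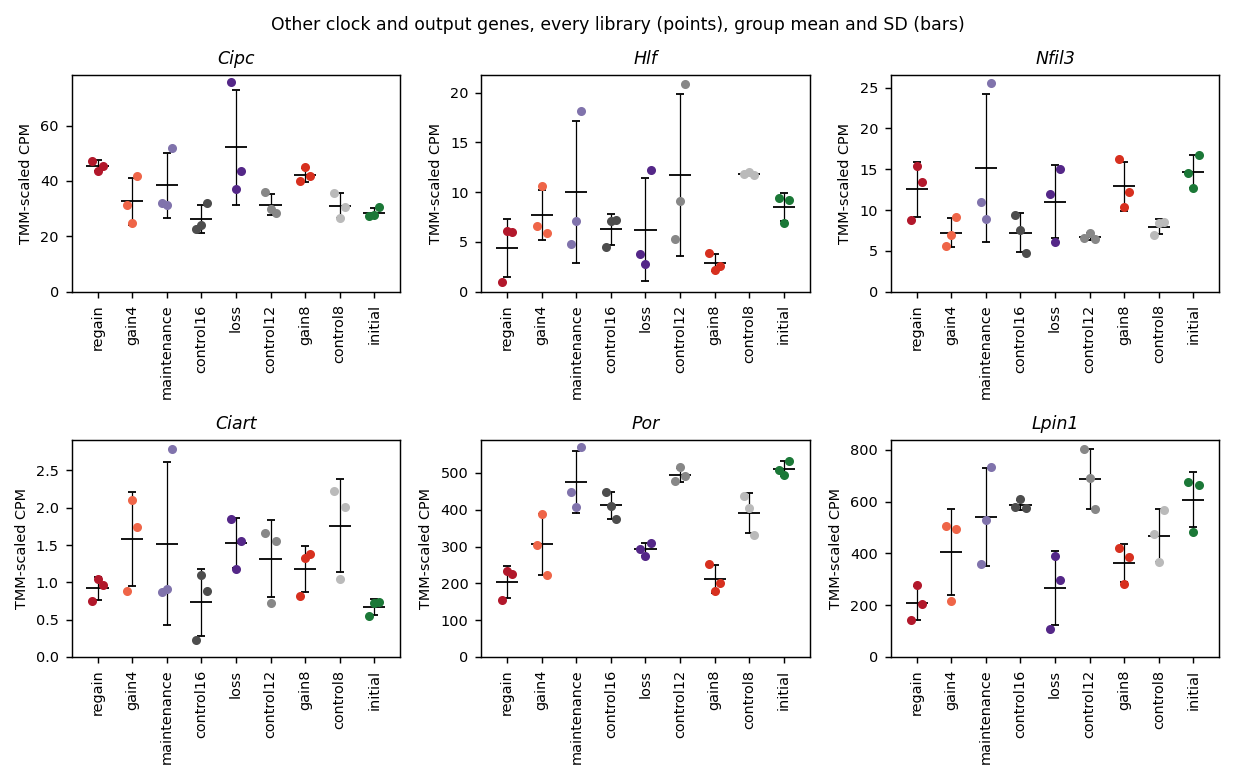
Level in TMM-scaled CPM (vertical axes, linear from 0) of the clock genes Cipc, Hlf, Nfil3 and Ciart and the outputs Por and Lpin1 in every library (points), with group means and SD (n = 3). The gain8 libraries hold 2.21 to 3.84 CPM of Hlf, all below the control8 libraries at 11.7 to 12.0 CPM.

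Of 10 further output genes listed and tested, 1 fell in gain8, 4 fell and 1 rose in loss, 1 rose in gain4, and 3 fell and 1 rose in regain, each against its own controls. Of all genes, 9.52% fell in gain8, 8.24% fell and 11.8% rose in loss, 3.80% rose in gain4, and 9.23% fell and 12.5% rose in regain, so single calls in a list of 10 are near those shares in gain8, and for the genes that rose in loss and regain. Por, the electron donor of microsomal P450 enzymes, had 253, 179 and 200.3 CPM in gain8 fat, against 437, 405 and 332 CPM in control8 fat (log2 fold change -0.89 ± 0.19, edgeR adjusted p 0.00285). It fell as well in loss (-0.76 ± 0.19) and regain (-1.02 ± 0.19). Lpin1, a phosphatidate phosphatase of fat and a transcriptional coregulator, fell in loss (-1.38 ± 0.38) and regain (-1.50 ± 0.38). Tspan4, a tetraspanin, rose in loss, gain4 and regain by 0.59 ± 0.21, 0.73 ± 0.21 and 0.58 ± 0.21.

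Beside the fall of Per1, glucocorticoid-induced genes were counted, of which 11 were listed and tested. In regain against control16, 7 fell and 0 rose, with a median log2 fold change of -1.19 beside -0.01 for all genes. Fkbp5, a cochaperone of the glucocorticoid receptor, had 40.5, 58.9 and 52.6 CPM in regain fat, against 208, 175 and 156 CPM in control16 fat (-1.82 ± 0.41, edgeR adjusted p 0.00296). In loss against control12, 4 fell (Fkbp5, Zbtb16, Klf9 and Ddit4) and 0 rose, with Fkbp5 at -2.46 ± 0.42. In gain8, where Per1 was not called, 1 fell (Errfi1) and 1 rose (Cdkn1a), and in gain4, where it was not called either, 1 fell (Klf9). Per1 was also called lower in regain against gain4, where 1 of the 11 fell, and in regain against maintenance, where 2 fell, and 0 rose in either. The medians there were -0.71 and -0.77, where 1.36% and 13.0% of all genes fell. The median log2 fold changes of the list were -0.42 in gain8, -0.85 in loss and -0.74 in gain4, and the counts stand beside shares of all genes called lower of 9.52% in gain8, 8.24% in loss, 2.02% in gain4 and 9.23% in regain. Whether the list differs between these comparisons was not tested. Whether these genes and Per1 share a cause was not tested.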

How the data were processed

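RNA of epididymal fat was measured in 27 libraries, prepared with the TruSeq RNA kit per the labels' protocols. The submitters' processing notes name Trimmomatic 0.33, TopHat2 2.0.13, HTSeq 0.6.0 and the build GRCm38 (mm10). The table of raw counts as deposited repeats 156 gene names with identical values, and repeats were dropped. The authors' FPKM equalled, for 99.9% of values and within a relative tolerance of 0.01, the count per kilobase over the library's protein-coding reads, so they hold the same reads.

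Names were filtered with edgeR's filterByExpr (minimum count 10, minimum total 15), which left 17821. TMM scaling and edgeR 4.0.16 (R 4.3.3) were used, with 1 mean per group over 27 libraries. P-values of the quasi-likelihood test were adjusted by Benjamini-Hochberg over all genes within each of 13 comparisons of 2 groups and 2 differences of differences, and a gene was called under 0.05. The SE is the fold change divided by the root of F. A prior count of 2 entered the log2 CPM behind deviations from group means. Libraries held 26479773 to 32728594 counts, and replicates differed by more than counting noise (chi-square per degree of freedom 11.9 to 538).

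Alternatives were RLE scaling, plain library sizes, no filter, DESeq2 1.42.0, the compared groups only, the replicate block, the Lars2 set as a term, libraries left out, and limma 3.58.1 on log2(FPKM + 1) and log2(FPKM + 0.1). Counting all orders of the libraries within groups was added after seeing the data. The code was tested on simulated data. Like-numbered replicates correlated at -0.18 to 0.51 and in 0 of 13 comparisons all above 0.1, so no pairing was used. The members, lists and tests were chosen with earlier results of these data known. Members were named throughout, genes of other lists where called (Clock and the plotted Nfil3 and Ciart were added after their values were seen), and the 5 genes of highest and of lowest r with Arntl, leaving out predicted genes. A Per2 promoter was not used here, and some genes that this rule names are not reported here.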

Additional observations from a re-analysis of the deposited data

How the results depend on the processing

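The 4 calls in gain8 against control8 were 6 with the compared groups only, 5 without 3 libraries (maintenance 3, loss 1 and control12 3) and 3 to 4 with 1 library left out. In gain4 against control16 the 2 calls were 0 with the compared groups only, 1 with limma on log2(FPKM + 1), 3 without the 3 libraries and 0 to 2 with 1 library left out. In regain against control16 the 2 calls were 1 with plain library sizes, with no filter and with the compared groups only, 3 without the 3 libraries, and 1 to 2 with 1 library left out. In regain against gain4 the 2 calls were 1 with plain library sizes and with either limma fit, 0 with no filter, with the compared groups only and with the replicate block, 3 without the 3 libraries, and 0 to 2 with 1 library left out. Regain against maintenance, with 1 call, had 0 with the compared groups only and with both limma fits, 2 with the Lars2 set as a term and with DESeq2, and 1 to 3 with 1 library left out. Loss against control12, with 1 call, had 0 to 2 with 1 library left out. Where no member was called, DESeq2 called 1 in loss against gain8, in control8 against initial and in the difference between gain4 and gain8; leaving out 1 library gave 0 to 1 in loss against gain8 and control8 against initial and 0 to 2 in maintenance against loss; control8 against initial had 7 with the compared groups only and 2 without the 3 libraries. Variation over the 9 groups was called in 6 members with limma on log2(FPKM + 0.1) and 10 with DESeq2. The shares of all genes called under the alternative settings are not reported here. The counts of members under those settings therefore show only how the calls move, and cannot be set beside all genes. The replicate block changed no other call than the 2 in regain against gain4, and the numbers did not pair the samples. The log2 fold change of Dbp in maintenance against control16, 1.83, was -0.82 without maintenance library 3 (-0.82 to 2.44 with 1 library left out) and -0.87 without the 3 libraries. That in regain against maintenance, -1.10, was 1.54 without maintenance library 3 (-1.62 to 1.54 with 1 library left out), 1.59 without the 3 libraries, and 0.10 and 0.26 in the limma fits with pseudocounts 1 and 0.1. The cause of these changes was not tested. With all within-group orders counted, 10077696 in number, 0 members passed for Arntl (Tef adjusted p 0.170), as in the 5 other settings tried. For a comparison of 2 groups with 3 libraries each, an exact permutation test could not go below a p of 0.1. That limit does not hold for the orders counted for Arntl, which run over all 9 groups.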
